A study of Homo sapiens with 2 samples.

Results

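Promoter accessibility was compared between the ATAC-seq peak lists of SUM159 cells without guides and with guides against ZEB1, and the peaks described here are the promoter peaks that were found only without guides. A peak was taken when it lay on chromosomes 1 to 22 or X in the No gRNA list, overlapped no peak of the All gRNA list by even 1 bp, and had its summit within 1000 bp of any transcript start of GENCODE release 44 on hg38. These No gRNA only promoter peaks numbered 3071, out of 20754 No gRNA peaks with a summit at a start (14.8%) and out of 74757 peaks in the whole No gRNA list, of which 67868 lay on these chromosomes. The same rule in the other direction gave 1979 All gRNA only promoter peaks out of 20248 (9.77%). Because the peaks were chosen by the calls of both lists, their strength, width and distance to All gRNA peaks are given as a description and not as a test.

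SUM159 is an established triple negative breast cancer line of the claudin-low type, with mesenchymal features. Both cell populations carried pLV-KRAB, a lentiviral dCas9 fused to the KRAB repressor domain. In the No gRNA cells the vector held no targeting guide, which the labels call an empty vector control, and the All gRNA cells received 4 guides to the ZEB1 promoter. There was a single library per condition, which leaves the conditions untested and every value without a p-value, and the intervals below cover counting error only. The recovered depth of the All gRNA library was 0.743 times that of the No gRNA library, and depth and condition cannot be told apart. The starts of VIM, CD44, AXL and CAV1 carried peaks in both lists, that of ZEB1 carried 2 No gRNA peaks and no All gRNA peak, and the canonical starts of CDH1, ESR1, CLDN4, KRT19 and EPCAM carried no peak in either list.

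ATAC-seq reads come from DNA that the transposase Tn5 could reach, and the starts of active genes, where the transcription machinery binds a stretch free of nucleosomes, are among the most accessible places of a genome. Many human promoters are rich in CpG dinucleotides and hold GC boxes, while promoters poor in CpG tend to belong to genes with restricted expression. ZEB1, the repressor targeted by the guides, binds the E-box CAGGTG and can recruit co-repressors to epithelial genes. KRAB recruits TRIM28 and heterochromatin factors to the place to which dCas9 is guided.

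Examples of the DNA under these peaks are 7 windows of 151 bases around the summit, read from hg38 in the direction of the gene, with each CpG in capitals. They come from the strongest peaks at protein-coding starts whose window touched no annotated exon, and they were chosen after the values were seen. They are not the whole selection by this rule and do not span the range of base composition in the set. The first 3 lay over 4000 bp from any All gRNA peak and were CpG-rich, which here means at least 50% G and C and an observed to expected CpG ratio of at least 0.6 within 100 bp either side of the summit.
NSUN6 (hg38 chr10:18651662-18651812, minus strand): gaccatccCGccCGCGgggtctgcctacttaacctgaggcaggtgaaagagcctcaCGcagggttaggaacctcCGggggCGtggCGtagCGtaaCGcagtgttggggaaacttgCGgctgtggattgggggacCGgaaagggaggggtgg
PYCR1 (hg38 chr17:81937360-81937510, minus strand): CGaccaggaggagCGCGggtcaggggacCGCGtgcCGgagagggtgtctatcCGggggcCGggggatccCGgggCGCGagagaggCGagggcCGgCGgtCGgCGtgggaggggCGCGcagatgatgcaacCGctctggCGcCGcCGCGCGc
SAMD11 (hg38 chr1:941814-941964, plus strand): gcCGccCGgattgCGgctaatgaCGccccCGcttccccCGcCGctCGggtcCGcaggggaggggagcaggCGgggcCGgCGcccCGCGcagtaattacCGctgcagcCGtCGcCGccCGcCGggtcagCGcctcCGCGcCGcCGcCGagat
The next 2 also lay over 4000 bp from any All gRNA peak and were not CpG-rich.
CD300LG (hg38 chr17:43846419-43846569, plus strand): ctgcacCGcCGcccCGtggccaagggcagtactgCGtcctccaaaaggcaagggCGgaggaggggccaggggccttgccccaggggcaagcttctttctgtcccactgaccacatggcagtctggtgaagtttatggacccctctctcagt
NUAK1 (hg38 chr12:106084179-106084329, minus strand): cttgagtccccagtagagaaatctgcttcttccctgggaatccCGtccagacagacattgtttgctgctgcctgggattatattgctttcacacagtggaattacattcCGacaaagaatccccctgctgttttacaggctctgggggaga
The last 2 lay within 1000 bp of an All gRNA peak, and only the first of them was CpG-rich.
ZZZ3 (hg38 chr1:77683003-77683153, minus strand): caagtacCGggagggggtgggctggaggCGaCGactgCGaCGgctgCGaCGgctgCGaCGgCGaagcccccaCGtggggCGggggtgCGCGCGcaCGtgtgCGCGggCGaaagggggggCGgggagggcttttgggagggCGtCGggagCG
MICALL2 (hg38 chr7:1458945-1459095, minus strand): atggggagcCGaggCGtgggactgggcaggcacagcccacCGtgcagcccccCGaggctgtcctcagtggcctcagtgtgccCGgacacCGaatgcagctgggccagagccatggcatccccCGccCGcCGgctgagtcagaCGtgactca

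Among the windows printed, the CpG count ran from 2 at NUAK1, a kinase related to AMPK, to 26 at SAMD11. The GC content was 49.0% at NUAK1 and 78.8% at SAMD11. NSUN6, an RNA methyltransferase, was the only one of the 7 with the E-box CAGGTG in its window, and MICALL2 was the only one with the AP-1 site TGACTCA. PYCR1, an enzyme of proline synthesis, had 24 CpG and none of the 10 motifs searched. Both strands were searched, and a match is a description of the letters only.

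The No gRNA only promoter peaks were narrow and weak beside the shared ones. Their median width was 242 bp, with quartiles of 208 and 300 bp, against 540 bp for the 17683 shared No gRNA promoter peaks. The methods state an extension of 150 bp, while the shortest peak in the list was 200 bp wide, so the setting behind widths and pileups is not certain. A width of 200 bp was found for 531 of them (17.3%), 2313 (75.3%) were at most 300 bp wide and 105 (3.42%) were wider than 500 bp. The median pileup, the number of extended transposase cuts stacked at the summit, was 13.0 against 46 for shared peaks, and the median fold over the local background was 5.45 against 12.5. The widest of all was 886 bp. All gRNA only promoter peaks had a median fold of 5.32, and their median −log10 q was 5.16 against 6.68 for the No gRNA only ones.

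Whether a promoter peak had a partner in the other list followed its strength. Of No gRNA promoter peaks with a −log10 q between 3 and 5, 663 of 1084 (61.2%, 95% Wilson interval 58.2 to 64.0) had no All gRNA partner. This share was 52.0% between 5 and 7, 38.9% between 7 and 10, 23.2% between 10 and 15 and 6.42% between 15 and 25. Among the 11013 strongest peaks, with a −log10 q of 25 or more, 29 had no partner (0.263%, 0.183 to 0.378). The All gRNA list showed the same order at lower levels, with 41.7% between 3 and 5 and 1 of 8247 at 25 or more (0.0121%).

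**Figure D1:**
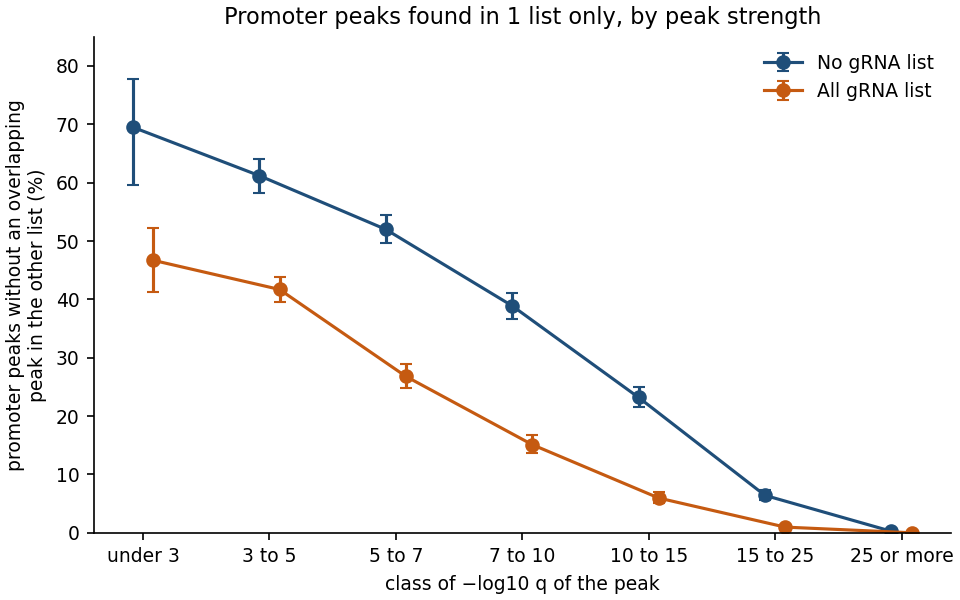
Share of promoter peaks without an overlapping peak in the other list (y axis, %) by class of −log10 q (x axis) for the No gRNA and All gRNA lists, with 95% Wilson intervals as bars. The No gRNA share goes from 69.5% in the weakest class to 0.263% in the strongest, and the All gRNA share from 46.7% to 0.0121%.

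The lower depth of the All gRNA library was set beside each peak. The pileup was scaled by 0.743 and compared with the smallest pileup that the All gRNA list would have called over the same scaled background. The scaled pileup reached this limit in 3047 of the 3071 peaks (99.2%), while the lower end of its 95% Poisson interval reached it in 1192 (38.8%, 37.1 to 40.6). These 1192 are described below as well above the limit. The same was true of 16062 of the 17683 shared peaks (90.8%) and of 5100 of the 13675 No gRNA only peaks away from starts (37.3%). In the other direction, 706 of the 1979 All gRNA only promoter peaks (35.7%) stood as far above the No gRNA limit. A share near 38.8% is therefore not particular to the No gRNA only promoter peaks. All these pileups had already passed the call of their own list, so a scaled pileup above the limit was likely in advance. The intervals do not cover this selection. These shares, and the scaled pileups of named genes below, are therefore a description, and the part of depth in the list was not tested.

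The nearest start belonged to a protein-coding gene for 2125 of the 3071 peaks (69.2%), to a lncRNA for 667 (21.7%), to a pseudogene for 164 (5.34%) and to a small RNA for 88 (2.87%). The protein-coding share differed from that of shared peaks by −7.54 percentage points (95% Newcombe interval −9.31 to −5.81). Read the other way, 28.8% of No gRNA promoter peaks at pseudogenes and 22.7% at small RNAs had no All gRNA partner, against 16.8% at lncRNAs and 13.5% at protein-coding genes. Among peaks of equal −log10 q the protein-coding difference had an interval apart from 0 only between 10 and 15, at −4.65 points (−9.33 to −0.119). Between 3 and 5 it was 0.321 points (−5.13 to 5.91).

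Position at the start separated the peaks from the shared ones more than gene type did. The summit lay within 100 bp of a start in 909 of 3071 peaks (29.6%), against 53.8% of shared peaks, a difference of −24.2 points (−26.0 to −22.4). Summits lay in introns in 50.2% against 31.8%, and 47.8% against 58.8% lay upstream of the nearest start. Starts on both strands within 1000 bp, the layout of a bidirectional promoter, were present in 16.4% against 27.5%. The nearest start was the Ensembl canonical one in 1129 peaks (36.8%, 35.1 to 38.5) against 40.0%, and among protein-coding starts in 22.3% against 32.6%, a difference of −10.3 points (−12.2 to −8.35). The canonical share over all gene types differed by −7.06 to 1.81 points in the 5 classes of −log10 q, with intervals that all included 0. The intron, upstream and both-strand shares, and the canonical share among protein-coding starts, were not split by −log10 q. Those pooled differences can therefore include the difference in peak strength. At equal −log10 q the difference in summits within 100 bp was smaller, from −2.13 points (−6.50 to 2.24) between 5 and 7 to −11.6 points (−16.0 to −6.86) between 10 and 15. From All gRNA only promoter peaks these shares differed by 3.61 points or less, with 26.4% within 100 bp and 50.1% in introns.

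An All gRNA peak often lay close by without touching. Of the 3071 peaks, 1301 (42.4%) had an All gRNA peak within 1000 bp, 415 of them within 150 bp, and 1293 (42.1%) had none within 4000 bp. In the 1301 close cases the All gRNA peak had its summit nearer to a start in 889 (68.3%, 65.8 to 70.8). In 1158 of the 1301 cases (89.0%) it also overlapped another No gRNA peak. The same All gRNA peak can count in more than 1 case. The median distance from summit to summit was 610 bp. The next peak of the No gRNA list itself lay within 1000 bp for 1369 of the 3071 (44.6%), and for 1133 of these it was a shared peak. The close peaks had a higher local background, 2.64 at the median against 0.680 for the distant ones.

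The strongest peak of the set belonged to this close kind, and BICDL1 and MICALL2 are named here after their values were seen. BICDL1, a dynein adaptor, had a No gRNA only peak 122 bp from a start with a pileup of 52 and a −log10 q of 40.9. Its nearest All gRNA peak, 242 bp away, was 1005 bp wide with a pileup of 118. MICALL2, an effector of Rab proteins in junction traffic, had a pileup of 105, the highest of all, 160 bp from an All gRNA peak of 708 bp and a pileup of 314 at MICALL2-DT. AMOTL1, an angiomotin that binds YAP, had a pileup of 37 at 655 bp downstream of its canonical start, 168 bp from an All gRNA peak with its summit 31 bp from the start. All 3 genes had a called All gRNA peak beside the peak that had no partner. CDK4, a kinase of the G1 phase, had a pileup of 36 and an All gRNA peak 191 bp away with a pileup of 138. SMAD5, a transducer of BMP signals, had a pileup of 15 and an All gRNA peak 122 bp away with its summit on the start.

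Among protein-coding genes, 1933 of the 11331 with a No gRNA promoter peak had at least 1 No gRNA only promoter peak (17.1%), and 1250 of them also had a shared one. The number of genes with such a peak and no All gRNA peak within 4000 bp of any of their starts was 285 (2.52%). These 285 genes had 318 of the peaks, with a median pileup of 11.0. At 125 of them a peak stood well above the All gRNA limit, and at 123 the peak was at the canonical start. Of the 318 peaks, 158 (49.7%) were CpG-rich. The genes below follow from the order of −log10 q within these 285.

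KIAA2012, a gene of unknown role, led the 285 genes with a pileup of 32 at chr2:202135657-202136003 and a −log10 q of 36.8, and the nearest All gRNA peak was 18605 bp away. BTN3A3, a butyrophilin of the immunoglobulin superfamily, followed with a pileup of 33 in a peak 15 bp from a start, and APOBEC3G, a cytidine deaminase that restricts retroviruses, had 23 at 8 bp from a start. The scaled pileups of these 3 genes were 23.8, 24.5 and 17.1, against All gRNA limits of 4, 5 and 4. None of these 3 peaks was CpG-rich, and all lay in a non-coding exon or UTR of a start that is not canonical. CD300LG, a CD300 family receptor, had a pileup of 22 at 654 bp upstream of a start.

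PCDHGB7, a gamma protocadherin of neuronal adhesion, had a pileup of 29 at 66 bp from its canonical start, and the next All gRNA peak lay 57709 bp away. EBF2, an early B-cell factor that also acts in adipocytes, had 28 at 121 bp upstream of its canonical start, 65112 bp from an All gRNA peak. These were also the strongest 2 among the peaks at protein-coding canonical starts. TDRD9, a helicase of the piRNA pathway, had a pileup of 30 with no CpG-rich summit.

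The next 4 genes by −log10 q that had a CpG-rich summit at a start that is not canonical were ZNF155, DRG2, NUBPL and GPR107. ZNF155, a zinc finger gene, had a pileup of 26 exactly at a start, and DRG2, a GTPase, had 28 at 11 bp from a start. NUBPL, an assembly factor of mitochondrial complex I, had 25 at 1 bp and GPR107, a membrane protein of the Golgi, had 26 at 46 bp. Their nearest All gRNA peaks lay between 10238 bp (GPR107) and 48153 bp (DRG2) away. RDH13, a mitochondrial retinol dehydrogenase, had a pileup of 21, but its summit sequence occurs on another contig of hg38 on which All gRNA had a peak.

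At canonical starts of protein-coding genes the strongest peaks after PCDHGB7 and EBF2 included NSUN6, with a pileup of 26. Its nearest All gRNA peak lay 7139 bp away. BCL9L, a coactivator of beta-catenin, had a pileup of 70 over a background of 15.2, so that its fold was only 4.38. HMGXB3 had a pileup of 42 and FKBP7, a prolyl isomerase of the endoplasmic reticulum, had 53, each within 300 bp of an All gRNA peak, at 277 and 258 bp. TIMP2, an inhibitor of matrix metalloproteinases, had 22 at 132 bp upstream of its start, RHBDF1, an inactive rhomboid, had 35, PITHD1 had 22 and ZNF570 had 31. AMOTL1, described above, is also among the 12 strongest. Of these 12 genes, 2 had no All gRNA peak within 4000 bp of a start of theirs.

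Starts of non-coding genes held some of the strongest peaks. LINC00857, a long non-coding RNA gene, had a pileup of 62 at 67 bp from its canonical start, the second highest −log10 q at 40.2, and its nearest All gRNA peak lay 1464 bp away at ANXA11. LINC02363 had a pileup of 43, ENSG00000253282 had 46 and ENSG00000225676 had 60, the last 755 bp from an All gRNA peak. Among pseudogenes IQSEC3P1 had a pileup of 32 at 41816 bp from any All gRNA peak and FAUP4 had 27, while ENSG00000284603 and NDUFS5P5 had 23 and 21 and both have a copy of their summit on another contig. The small RNA starts with the strongest peaks were RN7SL284P with 24, which also has a copy, MIR7849 with 21, MIR3936 with 35 and RNU6-993P with 21. The summits at these 4 small RNAs lay 495 to 956 bp from the start.

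The sequence under the peaks was not used to choose them. CpG-rich summits made up 1218 of 3071 (39.7%, 37.9 to 41.4), against 68.3% of shared promoter peaks, 28.4% of All gRNA only promoter peaks and 3.09% of the 13675 No gRNA only peaks away from starts. The differences were −28.7 points from shared peaks (−30.5 to −26.8) and 11.3 points from All gRNA only peaks (8.61 to 13.9). At equal −log10 q the difference from shared peaks was smaller, between −2.35 points (−6.98 to 2.28) in the class 5 to 7 and −13.6 points (−18.3 to −8.79) in the class 10 to 15. The median GC content was 57.2%, against 65.2% in shared and 53.2% in All gRNA only promoter peaks. From the other side, 9.16% of CpG-rich and 24.9% of other No gRNA promoter peaks had no All gRNA partner. For the All gRNA list these shares were 4.31% and 19.7%.

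The CpG-rich share differed with the gap to the nearest All gRNA peak. It was 60.5% (55.7 to 65.1) among peaks within 150 bp of an All gRNA peak and 25.7% (22.9 to 28.8) among those 4000 to 20000 bp away. Peaks within 1000 bp exceeded those over 4000 bp away by 27.4 points (23.8 to 31.0). Within the classes of −log10 q from 3 to 15 this excess was 26.7 to 28.1 points, and between 15 and 25 it was 13.4 points with an interval of −3.77 to 29.7. The distant peaks were a mixed group. Of the 1293 over 4000 bp away, 310 lay at the 285 genes without a nearby All gRNA peak. Of the 318 peaks of those genes, 158 (49.7%) were CpG-rich. Gene class was not separated in these shares. The share over 4000 bp away was 26.5%. The 68.3% of shared and 28.4% of All gRNA only promoter peaks are whole sets that were not split by gap. The value to set beside them is the 39.7% of all No gRNA only promoter peaks, not the share of a gap class.

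Short motifs within 100 bp of the summit were counted on both strands, 10 motifs against 3 other sets, as letters and not as bound sites. The E-box CAGGTG was present at 423 of 3071 peaks (13.8%, 12.6 to 15.0) and at 19.9% of All gRNA only promoter peaks, a difference of −6.14 points (−8.30 to −4.02). The difference was between −4.13 and −9.58 points in each of the 5 classes of −log10 q, and the interval included 0 only between 15 and 25. The 2 lists differ in depth, so an equal −log10 q is not an equal strength across them. Base composition was not separated either, and between 10 and 15 the CpG-rich shares were 35.5% and 18.2%. Both limits also hold for the AP-1 site below. The E-box was further compared with shared peaks. Against shared promoter peaks the difference in CAGGTG was 1.52 points (0.253 to 2.88) in all and not apart from 0 in any of the 5 classes. The related E-box CAGCTG was present at 13.2% and at 12.9% of All gRNA only peaks, a difference of 0.219 points (−1.71 to 2.10).

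The AP-1 site TGACTCA was found at 11.5%, against 15.6% of All gRNA only promoter peaks (difference −4.09 points, −6.07 to −2.15) and 22.8% of No gRNA only peaks away from starts. The difference from All gRNA only peaks was between −3.86 and −14.0 points in the 5 classes of −log10 q. Shared promoter peaks had the site at 8.91%, but at equal −log10 q the difference from them was below 0 in 4 of 5 classes, and only the 5.16 points between 10 and 15 (1.82 to 8.86) had an interval apart from 0. The GC box GGGCGG, bound by Sp1 and related factors, was found at 29.9%, against 52.7% of shared and 22.3% of All gRNA only promoter peaks. At equal −log10 q it was between −2.80 and −8.0 points from shared peaks, with an interval that included 0 only between 5 and 7.

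The other motifs differed from shared promoter peaks mainly in the pooled count. The ETS site CCGGAAG was present at 3.06% against 9.89%, but at equal −log10 q the difference was between −2.51 and 0.373 points, and its interval was apart from 0 only between 7 and 10 (−4.19 to −0.720). CGCATGCG, the core of the NRF1 site, was present at 0.619% against 2.10% and within classes differed by −0.629 to 1.2 points. CCAAT was present at 19.0% against 25.4% and differed within classes by −2.52 to 3.79 points. The CRE TGACGTCA, at 0.879% against 1.73%, differed by −0.625 to 0.760 points, and the core promoter motif TATAAA, at 5.44% against 3.46%, by −0.474 to 1.2 points. No class interval of these 4 motifs was apart from 0. The TEAD site GGAATG was present at 11.4% against 8.65%, with class differences from −2.45 to 4.87 points, of which only the last, between 10 and 15 (1.65 to 8.48), had an interval apart from 0.

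Some promoters have a second copy in the reference. The 51 bases around the summit occurred unchanged on one of 430 other contigs of hg38 for 133 of the 3071 peaks (4.33%) and for 2.60% of shared promoter peaks, and at 53 of the 133 the All gRNA list had a peak over the copy. Reads from such places can be placed on either copy, so an absent All gRNA peak on the chromosome does not give the state of the promoter. The major histocompatibility complex held many of these. In the window chr6:30000001-31000000, 9 of 21 promoter peaks were No gRNA only, all 9 had a copy and 6 had an All gRNA peak over it. In chr6:31000001-32000000 there were 8 of 22, with 7 copies and 6 such All gRNA peaks. Copies were as frequent among all promoter peaks there, at 21 of 21 and 21 of 22, so that having a copy does not set the No gRNA only peaks of these windows apart. HLA-E, a class I molecule, with a pileup of 14, is among the first 9. Of the 285 genes without a nearby All gRNA peak 22 had a copy, and 272 were left without the 13 that had an All gRNA peak over it. Copies on the chromosomes themselves were not searched, so the 272 can still include genes with a duplicate elsewhere.

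The peaks were spread over the genome. Their share of promoter peaks ran from 12.6% on chromosome 15 to 18.6% on chromosome 21, and 1484 of 2490 windows of 1 Mb with a promoter peak held at least 1. The window with the most, 14 of 51 promoter peaks, was chr6:26000001-27000000, with the replication-dependent histone genes H4C2, H1-2, H3C4, H4C5, H1-3, H3C7 and H3C8 and the butyrophilins BTN3A3 and BTN2A1, and none of the 14 had a copy on another contig. In chr5:141000001-142000000, the clustered protocadherins PCDHB2, PCDHB3, PCDHGA1, PCDHGB3 and PCDHGB7 had 5 of the 23 promoter peaks as No gRNA only peaks, 4 of them without an All gRNA peak near the gene. Over all protein-coding genes with a No gRNA promoter peak, 2.52% had such a peak and no nearby All gRNA peak. In chr3:123000001-124000000, 8 of 15 promoter peaks were No gRNA only, at SEMA5B, ADCY5, MYLK and ROPN1. In chr1:228000001-229000000 6 of the 9 peaks lay at RNA5S genes, a tandem array of near-identical copies among which reads cannot be told apart. These windows were named for their counts after the values were seen.

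In 20 genes 3 or more of the peaks had the same gene as nearest start. MIR99AHG, the host gene of a microRNA cluster, and SMG6, an endonuclease of nonsense-mediated decay, had 4 each, scattered over 395173 and 72764 bp. LOX, the lysyl oxidase that crosslinks collagen, had 3 within 1841 bp, with pileups of 15, 15 and 10, and all 3 were CpG-rich and within 1000 bp of 1 weak All gRNA peak with a pileup of 7. GUCY1A1, a subunit of the nitric oxide receptor, had 3 within 990 bp with pileups of 12, 12 and 11, and the nearest All gRNA peak lay 11142 bp away. The 3 peaks of ANXA2R, the annexin A2 receptor, had pileups of 39, 36 and 29 in 1118 bp over a background of 7.76. CYP27B1, which activates vitamin D, and SEMA5B, a semaphorin, had 3 each in 1095 and 1171 bp.

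The other genes with 3 peaks were CYTOR, EBF4, HIP1R, LIMCH1, METAP1D, MTMR2, NFIC, PTK7, RAI14, SMARCA2, TNS3, USP40 and VAV3. In these genes the 3 peaks spanned a longer stretch, from 6644 bp at NFIC to 334497 bp at LIMCH1. In several of them, such as NFIC and PTK7, 2 of the 3 peaks had the same nearest start. Their highest pileups were 26 at LIMCH1, 24 at SMARCA2 and 23 at NFIC, a factor of the nuclear factor I family. At PTK7, a pseudokinase of planar polarity, 2 of the 3 peaks lay 61 and 63 bp from All gRNA peaks. At SMARCA2, an ATPase of the SWI/SNF complex, the pileups were 13, 11 and 24. A further 187 genes had 2 peaks each.

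Gene lists were counted against the 17.1% of all protein-coding genes with a No gRNA promoter peak. Protocadherins stood highest, with 7 of 12 (58.3%, 32.0 to 80.7), and ribosomal protein genes lowest, with 3 of 64 (4.69%, 1.61 to 12.9), next to mitochondrial ribosomal proteins with 3 of 61 (4.92%, 1.69 to 13.5). ZNF zinc finger genes counted 39 of 359 (10.9%, 8.05 to 14.5), which also lay wholly below 17.1%. The intervals of the other 10 lists included 17.1%. Of the 7 protocadherins, 5 lie in the window chr5:141000001-142000000, where 5 of 23 promoter peaks (21.7%) were No gRNA only. The interval treats such neighbouring genes as independent, which they may not be. The lists differ in the strength of their promoter peaks, whose part in these counts was not tested.

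**Figure D2:**
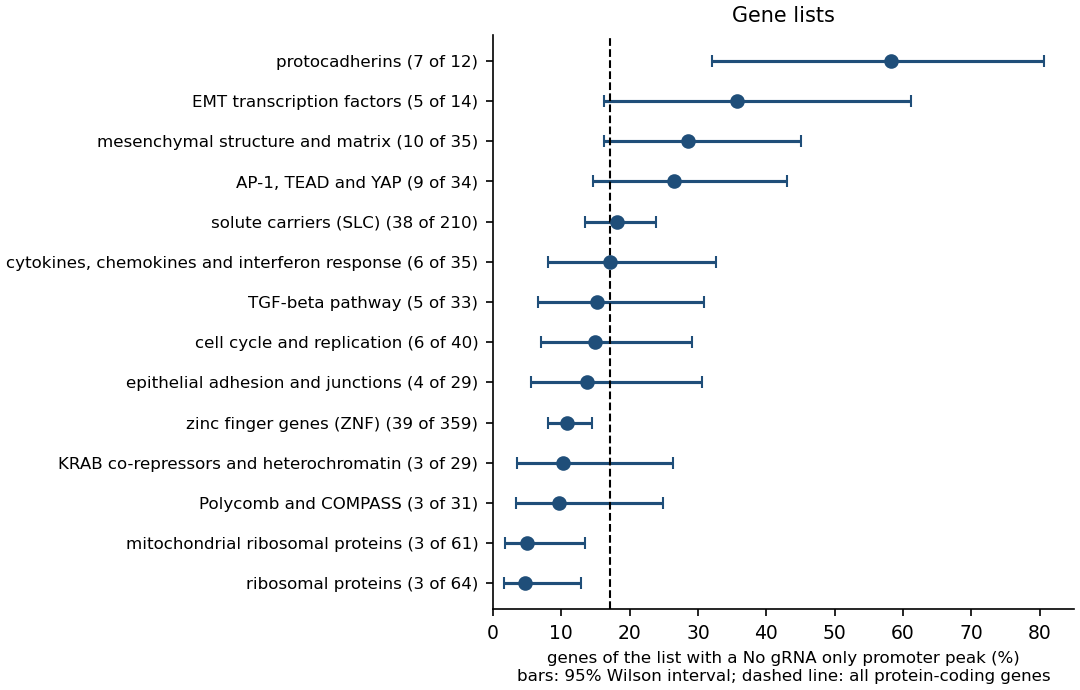
Share of the genes of each list that have a No gRNA only promoter peak (x axis, %), among those with any No gRNA promoter peak, with 95% Wilson intervals as bars and the counts beside each list name. The dashed line is the 17.1% of all protein-coding genes. Only protocadherins lie wholly above it, and 5 of their 7 genes are neighbours in 1 window of 1 Mb.

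Of the EMT transcription factors 5 of 14 (35.7%, 16.3 to 61.2) had a peak. ZEB2, the paralogue of ZEB1, had 2, with pileups of 30 and 17 near a start that is not canonical, and the closest All gRNA peak lay 2234 bp away. TCF4 had a pileup of 7, and TWIST2 had a pileup of 11 at 123 bp from an All gRNA peak. All 5 genes, ZEB1 included, had an All gRNA peak within 4000 bp of some start.

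Mesenchymal and matrix genes counted 10 of 35 (28.6%, 16.3 to 45.1). CNN1, a smooth muscle calponin, had a pileup of 19 at 9512 bp from an All gRNA peak, SPARC, a matrix glycoprotein, had 30, ITGA5, the fibronectin receptor subunit, had 15 and MMP2, a gelatinase, had 18 at 124 bp from its canonical start. SPARC and MMP2 had shared All gRNA peaks 1361 and 843 bp away. Epithelial junction genes counted 4 of 29 (13.8%, 5.50 to 30.6). CLDN4, a claudin, had 12 at a start that is not canonical and 5182 bp from an All gRNA peak. ITGB4, the hemidesmosome integrin, had 13. CGN, the tight junction protein cingulin, had 9 and OCLN, occludin, had 7, both beside an All gRNA peak, at 111 and 54 bp, and the OCLN summit has a copy on another contig.

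TGF-beta pathway genes counted 5 of 33 (15.2%). The activin receptor ACVR2B had a pileup of 36 and the nuclear co-repressor TGIF1 had 31, while LTBP1, which binds latent TGF-beta, and SMAD5 had 15 each. AP-1, TEAD and YAP genes counted 9 of 34 (26.5%, 14.6 to 43.1), led by the angiomotins AMOTL1 with 37 and AMOTL2 with 43 and followed by the small Maf factor MAFK with 35. Both angiomotin genes had an All gRNA peak within 1000 bp.

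KRAB co-repressor and heterochromatin genes counted 3 of 29 (10.3%, 3.58 to 26.4). MTA2, a subunit of the NuRD complex, had a pileup of 58 at 2095 bp from an All gRNA peak and another of 22 beside the promoter peak of 91 in All gRNA. MTA3, also of NuRD, had 14 and 10, and MBD2, a methyl-CpG binding protein, had 22. Polycomb and COMPASS genes counted 3 of 31 (9.68%), with PHF19 at 31, KDM6A, an H3K27 demethylase, at 20 and AEBP2 at 16, each with an All gRNA peak within 500 bp.

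Cell cycle genes counted 6 of 40 (15.0%), with CCND1, cyclin D1, at a pileup of 23, CDK6 at 23 and 18, CDK4 at 36 and CDKN1B at 13. Cytokine and interferon genes counted 6 of 35 (17.1%). Of the 35, 2 had such a peak and no nearby All gRNA peak, beside 2.52% of all protein-coding genes with a No gRNA promoter peak. IL18 had a pileup of 12 and CXCL1, a neutrophil chemokine, had 9 at 120 bp from its canonical start with the next All gRNA peak 46543 bp away. ISG15 had 32 and OAS1 had 10. Solute carriers counted 38 of 210 (18.1%), with SLC38A9 at 29, SLC7A7 at 18, SLC45A1 at 15 and SLC17A8 at 13 and 6.

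Among zinc finger genes, 10 of the 39 had no nearby All gRNA peak, which is 10 of the 359 with a No gRNA promoter peak. Over all protein-coding genes with a No gRNA promoter peak it was 285 of 11331 (2.52%). ZNF232 had a pileup of 18 at 79524 bp from any All gRNA peak, and ZNF287 had 17 at 96 bp upstream of its canonical start. Of the ribosomal protein genes, RPL10 had 29 beside a shared All gRNA peak with a pileup of 71, and RPS9 with 9 and RPS18 with 8 both have a copy on another contig. MRPS2 had 39, MRPL23, which has a copy, had 21 and MRPL13 had 11, all within 300 bp of an All gRNA peak, at 139, 269 and 68 bp. Of the protocadherins, PCDHB2 had 11, PCDH17 had 15 at 41 bp from an All gRNA peak and PCDHGA1 had 10.

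ZEB1, which the guides target, had a peak at chr10:31318755-31319413 with a pileup of 25, a fold of 6.31 and its summit 8 bp from a start. The divergent lncRNA ZEB1-AS1 had another at chr10:31319469-31319752 with a pileup of 27, 103 bp from its canonical start. The scaled pileups of 18.6 and 20.1 were above the All gRNA limit of 9. The nearest All gRNA peak lay 33925 bp from the ZEB1-AS1 peak, at chr10:31353678-31354009 with a pileup of 10, and its summit was 1276 bp from another annotated ZEB1 start. By −log10 q the ZEB1-AS1 peak ranked 233 and the ZEB1 peak 382 of the 3071, so 232 promoter peaks that were found only without guides were stronger than either. The guides place dCas9-KRAB on this promoter, and a covered DNA stretch and closed chromatin cannot be told apart in these lists.

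At the limit of 1000 bp the last peaks inside were at MAB21L3 with a pileup of 14 at 1000 bp, at ENSG00000279286 with 10 at 999 bp and at FAM13A with 13 at 999 bp. The first outside were at NTN4 with 17 and at ENSG00000275493 with 16, both at 1001 bp, and at FEZ2 with 19 at 1002 bp. Peaks on both sides of the limit had pileups of the same order.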

How the data were processed

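ATAC-seq was analysed in 1 No gRNA and 1 All gRNA library of SUM159 cells. Per the study's methods, the authors trimmed reads with fastp, aligned them to hg38 with Bowtie2, removed duplicates with SAMtools and reads in mitochondria and exclusion regions, and called peaks in each library with MACS2, for which no control is named. Versions are not given in the sources used here. The deposited peak lists hold the fold over the local background, −log10 p and −log10 q of each summit and a summit offset. The deposited score, derived by the caller from −log10 q, was not used.

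Summits were assigned to the nearest start of GENCODE release 44, any transcript, within 1000 bp, and peaks were shared when they overlapped by at least 1 bp. The pileup and local background of each summit were recovered from the fold and −log10 p, under the caller's Poisson model, with a largest misfit of 0.00420 in −log10 p. The depth ratio of 0.743 is the ratio of the lowest backgrounds, 0.484 and 0.652. The All gRNA call limit is the smallest pileup that would reach the lowest −log10 p of the All gRNA list. Sequence was read within 100 bp of each summit. Shares have 95% Wilson intervals and differences have Newcombe intervals, which cover counting error only, and regions are not replicates. With 1 library a group no p-value was computed.

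Named by rule are the strongest peaks by −log10 q at canonical protein-coding starts, at protein-coding genes without an All gRNA peak within 4000 bp of a start and at non-coding starts, up to 4 genes of each list, genes with 3 or more peaks and the ZEB1 locus. The genes of the printed sequences, BICDL1, MICALL2 and the genes of the 1 Mb windows were chosen after their values were seen. Some items that these rules name are not reported here. The peaks, gene lists and tests were chosen with earlier results of these data known. Alternatives changed the overlap, the gap, the −log10 q, the distance to starts, the starts used and the depth ratio. The scripts were tested on simulated data. Python 3.11.15, numpy 2.4.6, scipy 1.17.1, pandas 2.3.3, pysam 0.24.0 and matplotlib 3.10.9 were used.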

Additional observations from a re-analysis of the deposited data

How the results depend on the processing

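The count of 3071 No gRNA only promoter peaks became 5005 when an overlap of 50% of both peaks was required, 1770 when an All gRNA peak within 1000 bp counted as shared, 724 at a −log10 q of at least 10 and 1192 when only peaks with the lower limit above the call limit were kept. Their share of promoter peaks, 14.8%, became 24.1% and 8.53% under the first 2 of these, 12.0% and 4.53% at a −log10 q of at least 5 and 10, 12.2% within 500 bp of a start, 12.5% at canonical starts and 6.91% with the lower limit. The 285 genes became 76 at a −log10 q of at least 10, 171 with 10000 bp as near and 125 with the lower limit. The canonical share, 36.8%, became 38.7% with 50% overlap, 40.5% with the 1000 bp gap and 34.5% within 500 bp. The share near an All gRNA peak, 42.4%, became 64.6% with 50% overlap, 38.8% and 34.0% at a −log10 q of at least 5 and 10, 50.4% at canonical starts and 38.5% with the lower limit. The share well above the limit, 38.8%, became 52.7% with 50% overlap, 41.4% with the 1000 bp gap, 50.9% and 100% at a −log10 q of at least 5 and 10, and 32.1% with the median pileup ratio of 0.69 as depth. The CpG-rich share, 39.7%, became 50.3% with 50% overlap, 29.2% with the 1000 bp gap, 45.6% within 500 bp and 49.4% at canonical starts. Of 55 values under alternatives, 24 stayed within the limits set for them and 31 moved. Leaving out peaks with a copy on another contig and keeping only peaks with the lower limit above the call limit were chosen after seeing the data. Each alternative changes the set by construction, and the cause of any further shift was not tested. Values could not be checked in a second library. No paired analysis was possible because there was a single library per condition.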
